A study of Mus musculus with 2 samples.

Results

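Barcodes that carried RNA of more than 1 islet hormone were examined in droplet single-cell RNA sequencing of pancreatic islets from NOD mice, an inbred strain whose islets are invaded by immune cells and which becomes diabetic. The mice were 5 weeks of age when the diets began. For 5 weeks they were fed HAMSAB, a high-amylose maize starch carrying acetyl and butyryl groups, or HAMS, the same starch without them. There was 1 library per diet, and the number of mice behind each library is not given in the labels. A barcode was kept when it held at least 200 genes and when mitochondrial transcripts made up at most 20% of its unique molecular identifiers (UMIs, the counted molecules). Dual-hormone barcodes were chosen by their hormone UMIs: at least 2 of 3 hormone groups each made up at least 2% of all UMIs of the barcode. The groups were insulin (Ins1 plus Ins2), somatostatin (Sst), and glucagon with pancreatic polypeptide (Gcg plus Ppy). This gave 278 dual-hormone barcodes among 8813 kept barcodes, 37 of 4628 from HAMSAB and 241 of 4185 from HAMS. A further 1383 HAMSAB and 2150 HAMS barcodes passed 2% for exactly 1 group and are called single-hormone.

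The endocrine islet is built of beta cells that make insulin, alpha cells that make glucagon, delta cells that make somatostatin and gamma cells that make pancreatic polypeptide. In the adult, most endocrine cells make 1 of these hormones in large amounts, and cells with more than 1 are known mainly from the fetal pancreas and from stressed islets. A barcode stands for a droplet, which usually holds 1 cell, can hold several, and also takes up RNA released by broken cells. From UMI counts of 1 library per diet, a cell with 2 hormones, a droplet with 2 cells and taken-up RNA cannot be told apart.

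The hormone genes lie, in build GRCm38, at chr7:142678656-142743381 (Ins2, minus strand), chr19:52264297-52265476 (Ins1, plus strand), chr2:62474530-62483650 (Gcg, minus strand), chr16:23889573-23890958 (Sst, minus strand) and chr11:102099930-102101319 (Ppy, minus strand). Ins1 and Ins2 are near-identical copies, so the split of UMIs between them is uncertain and their sum was used. The libraries held 4254040 UMIs over 5022 barcodes in HAMSAB and 3599756 UMIs over 4352 barcodes in HAMS, and the median kept barcode had 705 and 704 UMIs. Barcodes with at least 1 hormone group, called hormone barcodes here, made up 30.7% of kept barcodes in HAMSAB and 57.1% in HAMS. The libraries shared 6 barcode sequences, of which 4 passed the filters in both libraries and 0 were dual-hormone. With 1 library per diet there is no replicate check and no test. All intervals are 95% intervals that cover counting error only.

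Dual-hormone barcodes were the smaller share in the HAMSAB library. They were 37 of 1420 hormone barcodes in HAMSAB (2.61%, exact Clopper-Pearson interval 1.84 to 3.57%) and 241 of 2391 in HAMS (10.1%, 8.90 to 11.4%), a difference of -7.47 percentage points. Out of all kept barcodes they were 0.800% in HAMSAB and 5.76% in HAMS. Barcodes with insulin and somatostatin numbered 8 in HAMSAB and 72 in HAMS, which is 0.563% (0.244 to 1.11%) and 3.01% (2.36 to 3.78%) of hormone barcodes. Insulin and glucagon or Ppy were together in 7 HAMSAB and 97 HAMS barcodes, or 0.493% (0.198 to 1.01%) and 4.06% (3.30 to 4.93%). Somatostatin and glucagon or Ppy were together in 21 HAMSAB and 65 HAMS barcodes, or 1.48% (0.918 to 2.25%) and 2.72% (2.10 to 3.45%). All 3 groups passed in 1 HAMSAB and 7 HAMS barcodes. As shares of hormone barcodes, the intervals of the diets did not overlap for the pairs with insulin, and they overlapped for the pair without it. Out of all kept barcodes the pair without insulin was 0.454% in HAMSAB (0.281 to 0.693%) and 1.55% in HAMS (1.20 to 1.98%), intervals that did not overlap.

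The makeup of the dual-hormone barcodes also differed between the libraries. Somatostatin with glucagon or Ppy was 56.8% of them in HAMSAB (39.5 to 72.9%) and 27.0% in HAMS (21.5 to 33.0%). Pairs with insulin and glucagon or Ppy were 18.9% in HAMSAB (7.96 to 35.2%) and 40.2% in HAMS (34 to 46.7%). Insulin alone was 52.1% of hormone barcodes in HAMSAB (49.5 to 54.7%) and 53.8% in HAMS (51.8 to 55.8%). Somatostatin alone was 22.8% in HAMSAB (20.7 to 25.1%) and 16.1% in HAMS (14.7 to 17.6%). Glucagon or Ppy alone was 22.5% in HAMSAB (20.3 to 24.7%) and 20.03% in HAMS (18.5 to 21.7%).

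**Figure D1:**
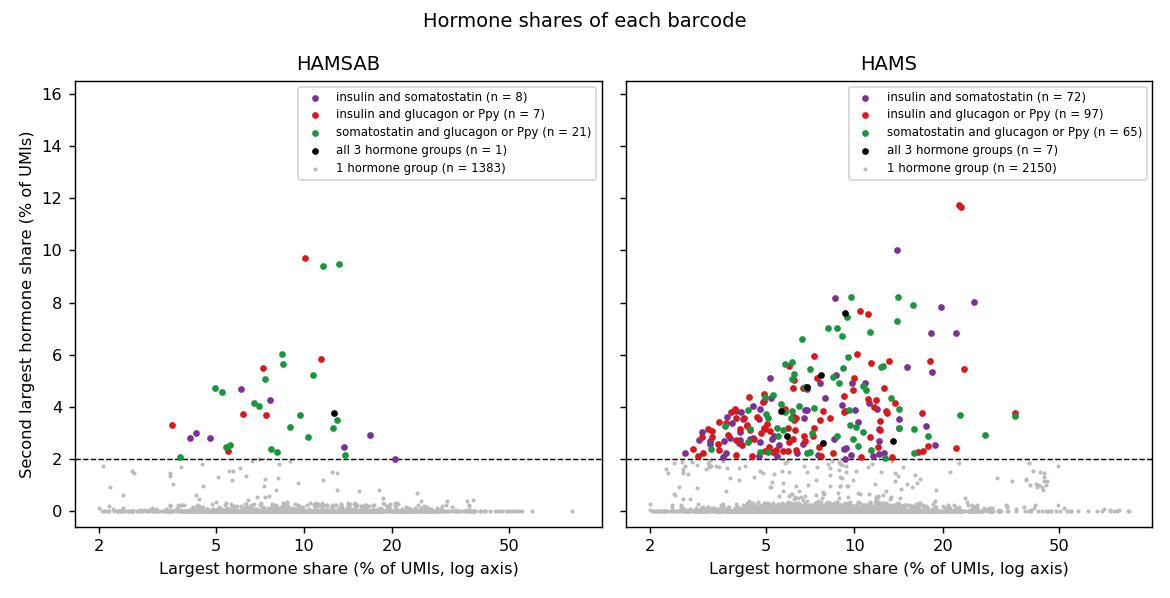
Largest hormone share (x axis, percent of a barcode's UMIs, log scale) against second largest hormone share (y axis, percent) for each hormone barcode, HAMSAB left and HAMS right. Each point is a barcode, colour gives the pair, grey points passed for 1 group, and the dashed line is the 2% threshold that 37 HAMSAB and 241 HAMS barcodes reached.

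The share of the second hormone chose the members and is given as a description. Its median was 3.67% in HAMSAB members, between 2.01 and 9.72%, and 3.47% in HAMS members, between 2.02 and 11.8%. In UMIs the second hormone had a median of 28 in HAMSAB and 30 in HAMS, with 9 as the lowest in both. The larger hormone had a median share of 7.71% in HAMSAB members and 6.87% in HAMS members, against 9.27% and 8.02% in single-hormone barcodes. Added together, both hormones reached a median of 12.2% in HAMSAB members and 11.1% in HAMS members. Just below the threshold the highest second share was 1.99% in HAMSAB and 1.95% in HAMS. The range from 1.5% to 2% held 12 HAMSAB and 45 HAMS hormone barcodes, and the next step up to 2.5% held 8 and 45, so the threshold falls in no gap. By contrast 77.0% of HAMSAB and 62.7% of HAMS hormone barcodes had no UMI of a second group at all.

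Hormone RNA was also counted in barcodes that carried at least 3 UMIs of 15 leukocyte genes (such as Ptprc, Cd3e and Cd79a), a cell type that makes none of these hormones. Among leukocyte-marked barcodes that were under 2% for every group, insulin was 0.0322% of UMIs in HAMSAB and 0.0721% in HAMS. In the same barcodes somatostatin was 0.00882% in HAMSAB and 0.0280% in HAMS, and Gcg plus Ppy 0.0101% and 0.0406%. These values are below 2% by construction, since barcodes at 2% or more were left out of them. Over all leukocyte-marked barcodes insulin was 0.499% of UMIs in HAMSAB and 0.410% in HAMS, somatostatin 0.0495% and 0.170%, and Gcg plus Ppy 0.150% and 0.183%. The order of the diets for insulin thus depended on whether those barcodes were counted. At least 1 insulin UMI was seen in 22.5% of leukocyte-marked barcodes in HAMSAB and 37.7% in HAMS, at a median depth of 797 and 835 UMIs in those under the threshold. Both hormone thresholds were met in 0 of 1892 leukocyte-marked barcodes in HAMSAB (up to 0.195%) and in 5 of 1081 in HAMS (0.463%, 0.150 to 1.08%). When the pooled hormone share of all leukocyte-marked barcodes, those at 2% or more included, was taken off first, a choice made after the data were seen, 36 of 1405 HAMSAB barcodes (2.56%) and 217 of 2370 HAMS barcodes (9.16%) were dual-hormone. The part of free RNA in the members was not tested beyond this.

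To set the pair counts against the abundance of each type, the number of barcodes with a pair was multiplied by the kept barcodes and divided by the product of the 2 single-hormone counts. This pair index is 1 when a pair is as frequent as the product of its classes' shares. For insulin with somatostatin it was 0.154 in HAMSAB (0.0667 to 0.304) and 0.609 in HAMS (0.476 to 0.766). For insulin with glucagon or Ppy it was 0.137 in HAMSAB (0.0552 to 0.283) and 0.659 in HAMS (0.534 to 0.804). For somatostatin with glucagon or Ppy it was 0.940 in HAMSAB (0.582 to 1.44) and 1.48 in HAMS (1.14 to 1.88). In each library the pair without insulin had the highest index of the 3 pairs, and each pair stood higher in HAMS.

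The same index was taken for leukocyte markers with 1 hormone group, a pairing of RNA from cells of separate lineages. It was 0.135 in HAMSAB (0.106 to 0.171; 70 barcodes) and 0.144 in HAMS (0.113 to 0.182; 72 barcodes). In HAMSAB the pairs with insulin lay at the level of the leukocyte pairing, and the pair of somatostatin with glucagon or Ppy lay above it. In HAMS all 3 hormone pairs lay above it. Leukocyte-marked barcodes, which enter the index through the kept barcodes, numbered 1892 in HAMSAB and 1081 in HAMS, and their part in the gap between libraries was not tested.

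**Figure D2:**
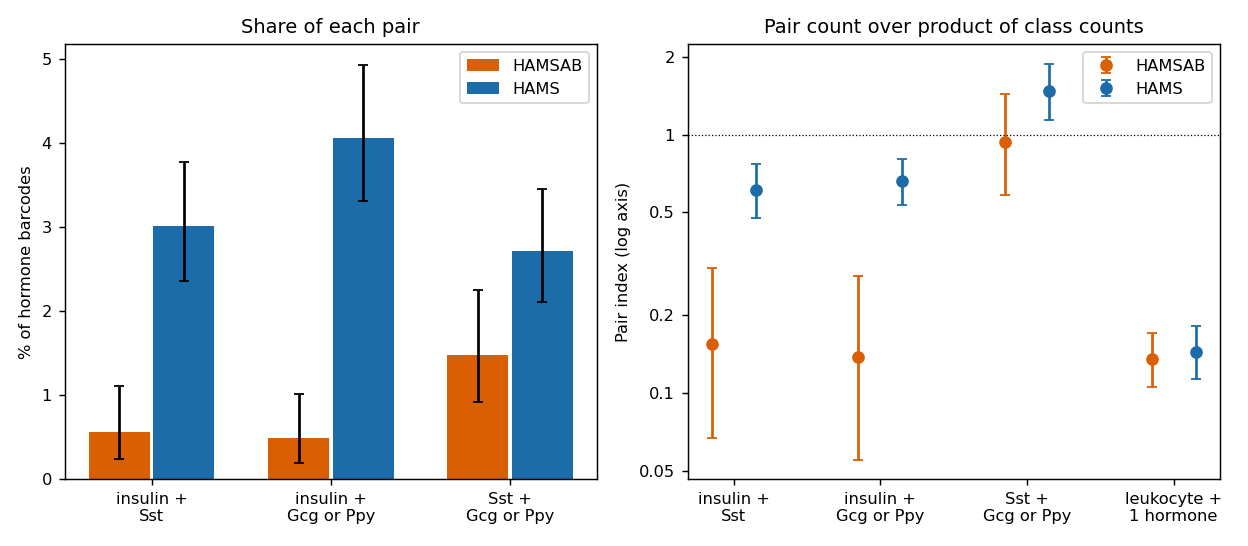
Left, share of each hormone pair among hormone barcodes (percent) with exact Clopper-Pearson 95% intervals; right, pair index on a log axis with exact Poisson 95% intervals, the dotted line at 1. HAMSAB is left of HAMS in each pair; the somatostatin pair had an index of 0.940 in HAMSAB and 1.48 in HAMS, and the leukocyte pairing 0.135 and 0.144.

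Hormone levels in each pair class, which the rule set, were as follows in UMIs per 1000000 UMIs (CPM). Barcodes with insulin and somatostatin held Ins2 at 85241 CPM in HAMSAB and 39131 CPM in HAMS, and Ins1 at 30593 and 13068 CPM. Their Sst level was 34797 CPM in HAMSAB and 62801 CPM in HAMS. Insulin was thus the larger hormone in the 8 HAMSAB barcodes as a sum, and Sst was the larger in the 72 HAMS barcodes. Barcodes with insulin and glucagon or Ppy held Gcg at 69496 CPM in HAMSAB and 39277 CPM in HAMS, with Ins2 at 38098 and 46881 CPM and Ins1 at 14319 and 17063 CPM. Ppy had 0 UMIs in these HAMSAB barcodes (up to 485 CPM) and 910 UMIs, or 11631 CPM, in the HAMS ones. Barcodes with somatostatin and glucagon or Ppy held Sst at 64822 CPM in HAMSAB and 73857 CPM in HAMS, and Gcg at 59344 and 52306 CPM. For comparison, insulin-only barcodes held Ins2 at 93739 CPM in HAMSAB and 85332 CPM in HAMS, somatostatin-only barcodes Sst at 93526 and 110150 CPM, and glucagon- or Ppy-only barcodes Gcg at 133804 and 92700 CPM. The third hormone was low in the pairs: Sst had 0 UMIs in the 7 HAMSAB barcodes with insulin and glucagon or Ppy and 371 CPM in the 97 HAMS ones.

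Pyy and Iapp were not part of the rule. Pyy encodes peptide YY, a hormone of the same family as Ppy, and Iapp encodes amylin, which beta and delta cells release. Pyy was at 1479 CPM in HAMSAB and 834 CPM in HAMS barcodes with insulin and somatostatin, 131 and 1943 CPM in those with insulin and glucagon or Ppy, and 2116 and 1332 CPM in those with somatostatin and glucagon or Ppy. In single-hormone barcodes it was at 14.3 CPM in HAMSAB and 39.4 CPM in HAMS with insulin alone, 1272 and 788 CPM with somatostatin alone, and 1650 and 1175 CPM with glucagon or Ppy alone. Pyy was thus low in insulin-only barcodes and seen in every pair, with the lowest level in the 7 HAMSAB barcodes with insulin and glucagon or Ppy, where it had 1 UMI. Iapp was at 12689 CPM in HAMSAB and 5485 CPM in HAMS barcodes with insulin and somatostatin, 6963 and 3783 CPM in those with insulin and glucagon or Ppy, and 2983 and 2230 CPM in those with somatostatin and glucagon or Ppy. Iapp in insulin-only barcodes was 14768 CPM in HAMSAB and 8123 CPM in HAMS, and in glucagon- or Ppy-only barcodes 124 and 309 CPM.

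The depth of dual-hormone barcodes was set beside that of single-hormone ones. Their median was 897 UMIs in HAMSAB (order-statistic interval 682 to 1112) and 897 UMIs in HAMS (831 to 946). Single-hormone barcodes had 727 UMIs in HAMSAB (698 to 756) and 657.5 in HAMS (637 to 675). The ratio of medians was 1.23 in HAMSAB (0.938 to 1.53, which holds 1) and 1.36 in HAMS (1.26 to 1.44), with intervals from the order statistics of the dual-hormone median. Among barcodes with at least 500 genes it was 1.07 (0.822 to 1.32) in HAMSAB and 1.04 (0.986 to 1.15) in HAMS. Against the sum of 2 single-hormone medians the ratio was 0.617 in HAMSAB and 0.682 in HAMS. The depths overlapped widely, from 326 to 3535 UMIs in HAMSAB members and from 301 to 3178 in HAMS members, against 314 to 5397 and 296 to 4456 in single-hormone barcodes.

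The pairs differed in depth. Insulin and somatostatin barcodes had a median of 1258 UMIs in HAMSAB (640 to 3535) and 961 in HAMS (867 to 1132), which was 0.850 and 0.718 of the summed medians of insulin-only and somatostatin-only barcodes. Somatostatin and glucagon or Ppy barcodes had 883 UMIs in HAMSAB (468 to 1104) and 1000 in HAMS (856 to 1122), or 0.691 and 0.772 of the corresponding sum. Insulin and glucagon or Ppy barcodes had 864 UMIs in HAMSAB (511 to 1722) and 712 in HAMS (603 to 880), or 0.572 and 0.549. In HAMS, 22 of 72 barcodes with insulin and somatostatin reached the summed median of their single classes (30.6%, 20.2 to 42.5%), against 169 of 1671 barcodes of those single classes (10.1%). For somatostatin with glucagon or Ppy this was 18 of 65 HAMS barcodes (27.7%, 17.3 to 40.2%) against 10.3% of single ones, and for insulin with glucagon or Ppy 11 of 97 (11.3%, 5.80 to 19.4%) against 11.0%. Within the last pair in HAMS, the 65 barcodes with more Gcg than Ppy had a median of 878 UMIs, 0.679 of the summed medians of their single classes, and 10 of them (15.4%, 7.63 to 26.5%) reached that sum against 11.1% of single ones. The 32 with more Ppy than Gcg had a median of 488.5 UMIs, 0.370 of the sum, and 1 of them (3.12%, 0.0791 to 16.2%) reached it against 10.9%. In HAMSAB 2 of 8, 4 of 21 and 3 of 7 barcodes of these pairs reached the sum, too few to set apart from the 14.7%, 10.1% and 15.7% of single ones.

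The number of genes followed depth. Dual-hormone barcodes had a median of 530 genes in HAMSAB and 504 in HAMS, against 431 and 396 in single-hormone barcodes. When each barcode was thinned to 500 UMIs the medians were 331 genes in HAMSAB and 320.5 in HAMS, against 327 and 327 genes, and 6 HAMSAB and 39 HAMS members were too shallow to enter. At equal depth the number of genes was therefore within a few genes of that in single-hormone barcodes. Mitochondrial UMIs had a median of 1.05% in HAMSAB members and 0.916% in HAMS members, against 1.12% and 1.14%. Leukocyte markers were reached by 0 of 37 members in HAMSAB (up to 9.49%) and 5 of 241 in HAMS (2.07%, 0.677 to 4.78%), against 70 of 1383 (5.06%) and 72 of 2150 (3.35%) single-hormone barcodes.

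**Figure D3:**
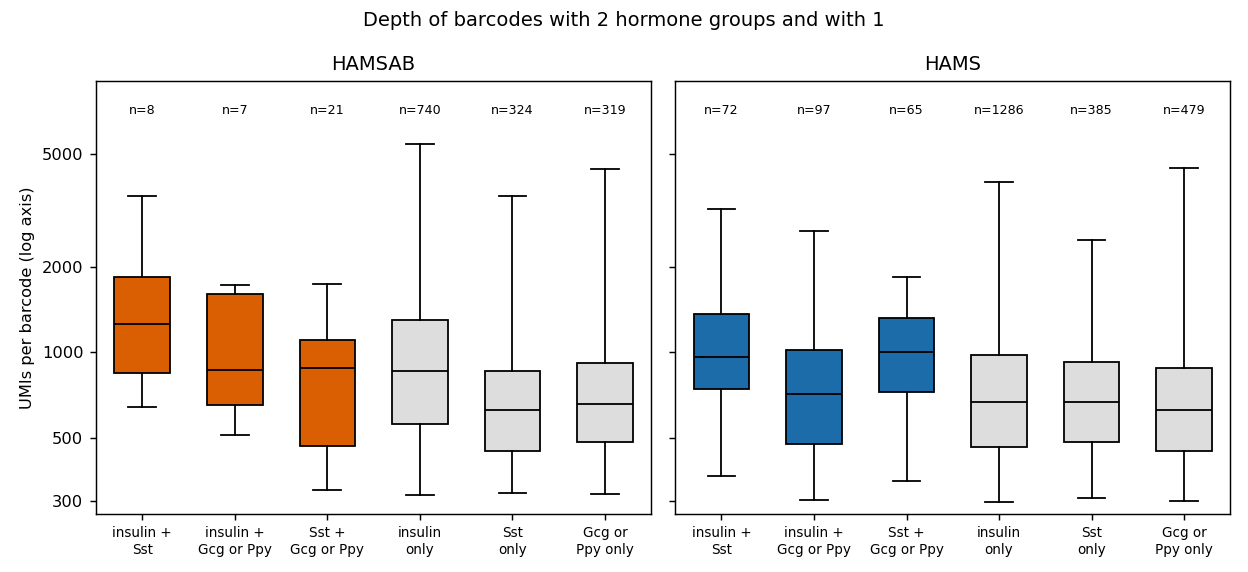
UMIs per barcode (log axis) for each pair (coloured) and each single-hormone class (grey), HAMSAB left and HAMS right. Boxes span the quartiles with the median as a line, and whiskers reach the lowest and highest barcode; the insulin and somatostatin median was 1258 in HAMSAB and 961 in HAMS, above both single classes.

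Whether a barcode with the hormone of a second type also carried other genes of that type was read from markers. The beta, alpha and delta cell lists were narrowed to genes at least 3-fold higher in their own single-hormone class than in both others, in both libraries, and with at least 20 UMIs, a choice made after values were seen. This left 10 beta-type genes (Mafa, Nkx6-1, Slc2a2, G6pc2, Ucn3, Trpm5, Glp1r, Ero1lb, Sytl4 and Prlr), 6 delta-type genes (Hhex, Rbp4, Ptprz1, Cd24a, Spock3 and Arg1) and 3 alpha-type genes (Ttr, Irx2 and Gria3). Levels of these and of all other genes below are per 1000000 UMIs other than those of Ins1, Ins2, Sst, Gcg and Ppy. The comparison value is a weighted sum of the single-hormone profiles of the same library, with weights found from the hormone UMIs alone. The narrowing makes each set low in the other single-hormone classes by construction.

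Both marker sets were found together in many members. Of barcodes with insulin and somatostatin, 5 of 8 in HAMSAB (62.5%, 24.5 to 91.5%) and 56 of 72 in HAMS (77.8%, 66.4 to 86.7%) held at least 1 UMI of each of the beta- and delta-type sets. In insulin-only barcodes this was 6.89% in HAMSAB and 3.42% in HAMS, and in somatostatin-only barcodes 1.85% and 9.61%. Of barcodes with somatostatin and glucagon or Ppy, 7 of 21 in HAMSAB (33.3%, 14.6 to 57.0%) and 27 of 65 in HAMS (41.5%, 29.4 to 54.4%) held delta- and alpha-type markers, against 0.926% and 2.60% of somatostatin-only and 11.6% and 10.6% of glucagon- or Ppy-only barcodes. Of barcodes with insulin and glucagon or Ppy, 3 of 7 in HAMSAB (42.9%, 9.90 to 81.6%) and 23 of 97 in HAMS (23.7%, 15.7 to 33.4%) held beta- and alpha-type markers, against 22.8% and 11.7% of insulin-only and 4.70% and 4.18% of glucagon- or Ppy-only barcodes.

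These shares depend on depth, so barcodes were also thinned to 500 UMIs. Delta-type markers were then seen in 6 of 8 HAMSAB and 52 of 70 HAMS barcodes with insulin and somatostatin (75% and 74.3%), against 4.62% and 2.55% of insulin-only barcodes. Beta-type markers were seen in 7 of 8 HAMSAB and 48 of 70 HAMS barcodes of that pair (87.5% and 68.6%), against 0.943% and 6.91% of somatostatin-only barcodes. Among barcodes with no hormone at 2%, 15.4% in HAMSAB and 12.1% in HAMS held a delta-type UMI, and 2.73% and 2.84% a beta-type UMI. Alpha-type markers were seen in 4 of 15 HAMSAB and 16 of 59 HAMS barcodes with somatostatin and glucagon or Ppy (26.7% and 27.1%), against 0.472% and 3.64% of somatostatin-only barcodes. Delta-type markers were seen in 8 of 15 and 42 of 59 of these (53.3% and 71.2%), against 11.7% and 14.7% of glucagon- or Ppy-only barcodes. In barcodes with insulin and glucagon or Ppy, beta-type markers were seen in 6 of 7 in HAMSAB and 47 of 66 in HAMS (85.7% and 71.2%), against 6.49% and 9.09% of glucagon- or Ppy-only barcodes. Alpha-type markers there were seen in 2 of 7 in HAMSAB and 18 of 66 in HAMS (28.6% and 27.3%), against 14.7% and 8.2% of insulin-only barcodes. At equal depth the markers of a type were thus seen in a larger share of each pair than of the single class that lacks its hormone, except that the interval of the 2 of 7 alpha-type HAMSAB barcodes (3.67 to 71.0%) holds the 14.7% of insulin-only ones. The markers were chosen in these same data as low in that single class, which favours this outcome, so it is a description.

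In pairs that hold the type's own hormone, the amount of beta- and delta-type markers lay between 0.795 and 1.26 times the weighted sum, except for beta-type markers in the 7 HAMSAB barcodes with insulin and glucagon or Ppy. The 3 alpha-type genes, mostly Ttr, varied more. In barcodes with insulin and somatostatin, beta-type markers were at 4217 CPM in HAMSAB against 5304 CPM in the weighted sum, a ratio of 0.795 (exact Poisson interval 0.582 to 1.06), and at 2943 against 2908 CPM in HAMS, a ratio of 1.01 (0.880 to 1.16). Delta-type markers in that pair had a ratio of 1.26 in HAMSAB (0.848 to 1.79) and 0.837 in HAMS (0.727 to 0.958). In barcodes with somatostatin and glucagon or Ppy, delta-type markers had a ratio of 0.912 in HAMSAB (0.704 to 1.16) and 0.847 in HAMS (0.725 to 0.985), and alpha-type markers 1.24 (0.737 to 1.96) and 1.58 (1.18 to 2.06). In barcodes with insulin and glucagon or Ppy, beta-type markers had a ratio of 1.64 in HAMSAB (1.17 to 2.24; 39 UMIs over 7 barcodes) and 0.895 in HAMS (0.779 to 1.02). The alpha-type ratio in that pair was 0.690 in HAMSAB (0.277 to 1.42; 7 UMIs) and 2.96 in HAMS (2.49 to 3.49). Of the 141 alpha-type UMIs behind the HAMS value, 99 were Ttr in 1 barcode of 1352 UMIs, and without that barcode the ratio was 0.896 (0.646 to 1.21).

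Markers of the third type, whose hormone was below 2%, were lower than in their own single class in every pair. In barcodes with insulin and somatostatin, alpha-type markers were at 733 CPM in HAMSAB (8 UMIs) and 153 CPM in HAMS, against 2442 and 1202 CPM in glucagon- or Ppy-only barcodes. The HAMSAB value, from 4 of 8 barcodes, was 2.51 times the weighted sum (1.08 to 4.9), and the HAMS value 1.32 times (0.658 to 2.36). In barcodes with insulin and glucagon or Ppy, delta-type markers were at 150 CPM in HAMSAB (1 UMI) and 506 CPM in HAMS, against 6765 and 6056 CPM in somatostatin-only barcodes, and the HAMS value was 1.75 times the weighted sum (1.22 to 2.44). In barcodes with somatostatin and glucagon or Ppy, beta-type markers were at 186 CPM in HAMSAB and 295 CPM in HAMS, against 7601 and 6394 CPM in insulin-only barcodes.

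**Figure D4:**
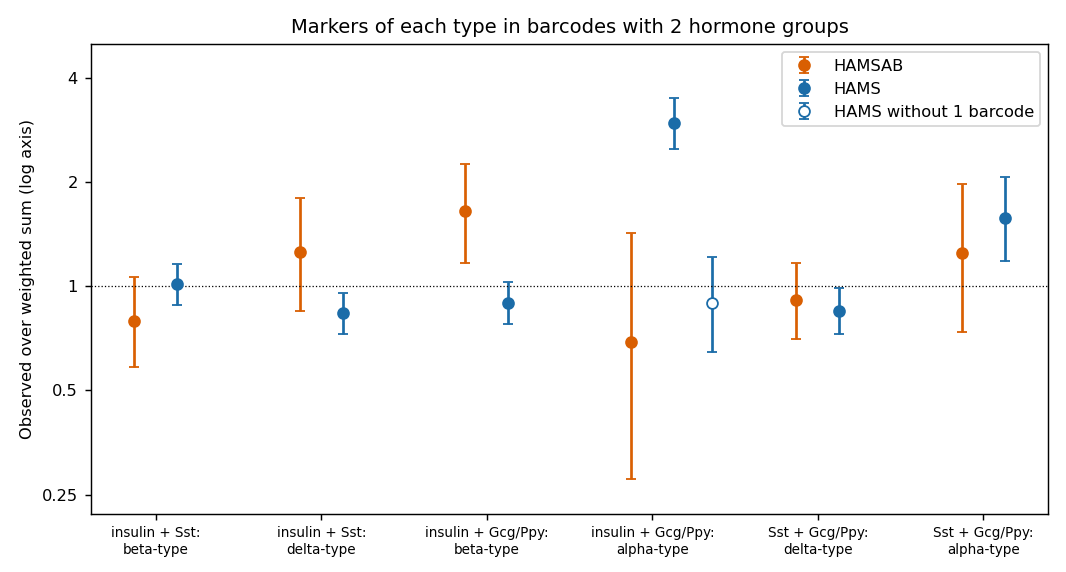
Level of type-specific markers in each hormone pair divided by the weighted sum of single-hormone profiles of the same library (log axis), with exact Poisson 95% intervals, HAMSAB left of HAMS. The open symbol leaves out 1 HAMS barcode with 99 Ttr UMIs, which brings the alpha-type ratio in insulin and glucagon or Ppy barcodes to 0.896.

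Single marker genes rest on few UMIs each. Mafa, a transcription factor of mature beta cells, was at 917 CPM in HAMSAB and 888 CPM in HAMS barcodes with insulin and somatostatin, against 1730 and 1677 CPM in insulin-only and 9.34 and 49.8 CPM in somatostatin-only barcodes. In the same pair Cd24a, a surface protein used here as a delta cell marker, was at 1467 CPM in HAMSAB and 1624 CPM in HAMS, against 3889 and 3365 CPM in somatostatin-only and 162 and 48.1 CPM in insulin-only barcodes. Rbp4, which encodes retinol-binding protein, was at 1008 and 972 CPM in that pair and at 1858 and 1909 CPM in somatostatin-only barcodes. Hhex, the transcription factor that maintains delta cells, had 0 UMIs in the 8 HAMSAB barcodes and 9 UMIs in the 72 HAMS barcodes of that pair. In the pair of insulin with somatostatin, Mafa, Cd24a and Rbp4 thus lay between their levels in the 2 single classes in both libraries.

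Summed over the whole lists, members lay near the weighted sum in both libraries. The ratio was 1.02 in HAMSAB and 0.978 in HAMS for 20 beta cell markers other than insulin, and 0.990 and 0.881 for 20 delta cell markers without somatostatin. It was 1.08 and 1.12 for 17 alpha cell markers other than glucagon, with 99 of the 189 Ttr UMIs of HAMS members in 1 barcode. It was 0.869 and 0.938 for 18 islet transcription factors. It was 1.10 and 0.992 for secretory granule genes, 0.931 and 1.05 for ductal markers, 0.995 and 1.10 for immediate early genes, 1.11 and 1.01 for interferon response genes and 0.900 and 0.922 for unfolded protein response genes. Gamma cell markers without Ppy, Pyy among them, had ratios of 1.17 (0.932 to 1.45) in HAMSAB and 1.49 (1.36 to 1.64) in HAMS. Genes of progenitor and dedifferentiated islet cells (such as Neurog3, Aldh1a3 and Sox9) had 10 UMIs in HAMSAB members and 86 in HAMS members, with ratios of 0.618 (0.296 to 1.14) and 1.16 (0.927 to 1.43). Proliferation genes had ratios of 0.944 (0.718 to 1.22) in HAMSAB and 0.884 (0.793 to 0.982) in HAMS. Of other cell types, leukocyte genes had 0 UMIs in HAMSAB members against 488 CPM in the weighted sum, and a ratio of 0.555 (0.391 to 0.764) in HAMS. Acinar markers had 2 UMIs in the members of each library. Endothelial and stromal markers had ratios of 1.86 in HAMSAB (0.749 to 3.84; 7 UMIs) and 1.38 in HAMS (0.969 to 1.92; 36 UMIs).

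Gene by gene, no gene outside the hormones with at least 50 UMIs departed 2-fold from the weighted sum in both libraries. Among the 794 genes that reached 50 UMIs in the members, 0 were 2-fold higher in both (0%) and 0 were 2-fold lower in both (0%). The limit was set on both libraries together and was met mainly through HAMS, which favours genes that are high there. In HAMSAB alone 12 were 2-fold higher (1.51%) and 28 lower (3.53%), and in HAMS, with its larger sum, 4 were higher (0.504%) and 0 lower (0%). Pyy was among the highest, with 1724 CPM in HAMSAB members and 1118 in the weighted sum (log2 ratio 0.62, 0.23 to 0.99), and 1529 CPM in HAMS members and 736 in the weighted sum (1.06, 0.89 to 1.22). In HAMS, 152 of its 313 UMIs were in barcodes with insulin and glucagon or Ppy. Pcsk1n, which encodes proSAAS, an inhibitor of prohormone convertase, had log2 ratios of 0.91 (0.51 to 1.29) in HAMSAB and 0.55 (0.42 to 0.68) in HAMS.

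The other 6 highest genes by the less extreme library were Soga3 (log2 ratio 1.71 in HAMSAB and 0.92 in HAMS), Mydgf (1.07 and 0.91), Zfp367 (0.76 and 0.62), Tbck (0.70 and 0.62), Cux2 (0.55 and 0.62) and Lrrc10b (1.19 and 0.55). Their HAMSAB values rest on 8 to 14 UMIs each. The lowest were Tmsb4x, which encodes the actin-binding thymosin beta 4 (-2.50 in HAMSAB on 3 UMIs and -0.70 in HAMS), and H2-Ab1, an antigen-presenting chain of MHC class II (-1.96 on 5 UMIs and -0.67). Both are abundant in leukocytes, and leukocyte genes as a list stood below the weighted sum in both libraries as given above; its part in these 2 genes was not tested. Basp1 (-0.79 in HAMSAB and -0.63 in HAMS), Hnrnpu (-0.94 and -0.61), Tent5a (-0.60 and -0.54), Insm1 (-0.52 and -0.74), Hsph1 (-0.47 and -0.50) and Snap25 (-0.68 and -0.41) followed. Insm1 is a transcription factor of endocrine development and Snap25 a protein of granule release.

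The barcodes with glucagon or Ppy were divided into those with more Gcg and those with more Ppy, after the data were seen. Among barcodes with insulin, Ppy exceeded Gcg in 0 of 7 in HAMSAB (up to 41.0%) and in 32 of 97 in HAMS (33.0%, 23.8 to 43.3%). Among barcodes with somatostatin it did so in 0 of 21 in HAMSAB (up to 16.1%) and 6 of 65 in HAMS (9.23%, 3.46 to 19.0%). Single-hormone barcodes of the group had Ppy above Gcg in 41 of 319 in HAMSAB (12.9%, 9.38 to 17.0%) and 54 of 479 in HAMS (11.3%, 8.58 to 14.4%). Ppy-rich barcodes were thus a like share of single-hormone barcodes in the libraries, and members with insulin and more Ppy than Gcg were seen in HAMS and in none of the 7 HAMSAB barcodes.

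The 32 HAMS barcodes with insulin and more Ppy than Gcg had the lowest median depth of the HAMS pairs. They had a median of 488.5 UMIs (371 to 765), below that of insulin-only barcodes (670) and of Ppy-rich single-hormone barcodes (651). Their insulin had a median of 40.5 UMIs per barcode, from 14 to 314, and their Ppy 16 UMIs, from 7 to 132. Gcg, which the division placed below Ppy, was seen in 26 of 32 (81.2%) with a median of 6 UMIs, against 16 of 54 Ppy-rich single-hormone barcodes (29.6%) and 163 of 1286 insulin-only barcodes (12.7%). Sst was seen in 3 of 32, with at most 1 UMI per barcode. Their pair index was 1.93 (1.32 to 2.72), and there were 59.3 of them per 100 Ppy-rich single-hormone barcodes.

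In these 32 barcodes other genes were set against the weighted sum of insulin-only, somatostatin-only and Ppy-rich profiles. Of 99 genes with at least 20 UMIs in these barcodes, 9 were at least 2-fold higher (9.09%) and 0 were 2-fold lower (0%). The median log2 ratio was 0.06. The limit was set on the UMIs of these same barcodes and favours genes that are high in them. The counts of higher and lower genes therefore cannot be set against each other. Pyy was at 7547 against 3301 CPM, a log2 ratio of 1.19 (0.93 to 1.44), from 23 barcodes. Cxcl10, a chemokine gene that interferon switches on, had the highest log2 ratio, 3.01 (2.35 to 3.59), with 23 UMIs over 11 barcodes. Gm42418 and AY036118, loci that overlap ribosomal RNA repeats, had log2 ratios of 1.25 (0.99 to 1.49) and 1.55 (1.05 to 2.01). Gpx3, Ptms, Itm2b, Egr1 and Gbp7 had log2 ratios from 1.0 to 1.61 on 21 to 59 UMIs. A single barcode held 9 of the 21 Gpx3 UMIs, which came from 8 barcodes. For Egr1 a single barcode held 13 of 59 UMIs, and for Ptms 7 of 31. These genes were named by the 2-fold limit after their values were seen.

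Endothelial and stromal markers (Pecam1, Kdr and 10 others) had 21 UMIs in 11 of these 32 barcodes (34.4%), at 1248 CPM against 75.1 CPM in the weighted sum, a ratio of 16.6 (10.3 to 25.4). Insulin-only barcodes of HAMS had at least 1 such UMI in 2.57% and Ppy-rich single-hormone ones in 1.85%, at greater median depth. Leukocyte genes had 6 UMIs in 3 of the 32, a ratio of 1.84 (0.675 to 4.0), and acinar markers had 0 UMIs. Beta-type markers were at 2912 against 3633 CPM, a ratio of 0.802 (0.593 to 1.06), in 21 of 32 barcodes. Unfolded protein response genes were lower than the weighted sum (ratio 0.716, 0.605 to 0.840), and immediate early genes were higher (1.30, 1.18 to 1.43). The part of endothelial RNA and of low depth in these 32 barcodes was not tested.

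Between the diets, most genes in the dual-hormone barcodes differed by less than 2-fold. Of 799 genes with at least 50 UMIs, 25 were at least 2-fold higher in HAMSAB (3.13%) and 60 at least 2-fold lower (7.51%), together 85 (10.6%), with a median log2 ratio of -0.07 over all of them. The HAMSAB sum is 39531 UMIs from 37 barcodes and the HAMS sum 233256 UMIs from 241. The limit of 50 UMIs over both libraries was thus met mainly through HAMS, which favours genes that are high there. The counts of higher and lower genes therefore cannot be set against each other. Because the pairs are mixed differently in the libraries, the ratios were also computed with the HAMS pair classes carrying the HAMSAB weights, and in single-hormone barcodes. With these weights 28 genes were 2-fold higher and 57 lower.

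Ppy entered the rule, and its ratio is a description. Iapp and Pyy did not enter it. Ppy was at 759 CPM in HAMSAB members (30 UMIs in 5 barcodes) and 6152 CPM in HAMS members (1435 UMIs in 65 barcodes), a log2 ratio of -3.02 (-3.59 to -2.50). With HAMSAB pair weights it was -2.94, and in single-hormone barcodes it was -0.01 (-0.08 to 0.06). Iapp was at 6881 CPM in HAMSAB and 3876 CPM in HAMS members, a log2 ratio of 0.83 (0.63 to 1.02), and the ratio in single-hormone barcodes was 0.85. One HAMSAB barcode held 68 of the 272 Iapp UMIs of the members. By pair the Iapp ratio was 1.21 (0.94 to 1.47) with insulin and somatostatin and 0.88 (0.43 to 1.31) with insulin and glucagon or Ppy. With somatostatin and glucagon or Ppy it was 0.42 (-0.05 to 0.88), which holds 0. Pyy was at 1492 CPM in HAMSAB and 1342 CPM in HAMS members, a log2 ratio of 0.15 (-0.27 to 0.56) over all pairs. By pair its log2 ratio was 0.83 (0.01 to 1.58) with insulin and somatostatin, -3.89 (-9.20 to -1.39) with insulin and glucagon or Ppy, where HAMSAB had 1 UMI, and 0.67 (0.09 to 1.23) with somatostatin and glucagon or Ppy. Of the 152 HAMS UMIs with insulin and glucagon or Ppy, 127 were in the 32 barcodes with more Ppy than Gcg, a kind not seen in HAMSAB. With insulin and more Gcg than Ppy, Pyy was at 131 CPM in 7 HAMSAB barcodes (1 UMI) and 428 CPM in 65 HAMS barcodes (25 UMIs).

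Malat1, Hist1h1c and Scg2 were among the genes highest in HAMSAB members. Malat1, a long noncoding RNA that stays in the nucleus, was at 30229 CPM in HAMSAB and 14096 CPM in HAMS, a log2 ratio of 1.10 (1.0 to 1.20), against 0.44 in single-hormone barcodes. One HAMSAB barcode held 251 of its 1195 UMIs. Hist1h1c, a linker histone, was at 607 and 133 CPM, a log2 ratio of 2.19 (1.36 to 3.01), against 0.90. Its 24 HAMSAB UMIs came from 10 barcodes, with 8 UMIs in a single barcode. Scg2, which encodes the granule protein secretogranin II, was at 2403 and 1235 CPM, a log2 ratio of 0.96 (0.61 to 1.30), against 0.64. The other named genes were Ss18l2 (1.52), Atp5l, a subunit of ATP synthase (1.60), Twsg1, a binder of bone morphogenetic proteins (1.42), Tspan13 (1.46), Chka, a choline kinase (1.30), and Rbm25, a splicing factor (1.19), on 19 to 37 HAMSAB UMIs each.

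Genes lowest in HAMSAB members included an immediate early gene. Fos, a subunit of the AP-1 transcription factor that is switched on within minutes of a stimulus, was at 1189 CPM in HAMSAB and 3670 CPM in HAMS, a log2 ratio of -1.63 (-2.08 to -1.20), and -1.60 with HAMSAB pair weights. It was lower in single-hormone barcodes as well, with -1.16 (-1.23 to -1.08). Mt2, which encodes a metal-binding metallothionein, had 0 UMIs in HAMSAB and 61 UMIs in 42 HAMS barcodes. With a floor of 3 counts over the HAMSAB members its log2 ratio was -1.79, and the upper bound of its interval was -1.44. In single-hormone barcodes the Mt2 ratio was -0.40 (-0.62 to -0.18). Impact, which encodes a regulator of the GCN2 stress kinase, had a log2 ratio of -1.65 (-2.58 to -0.85), and Gnai2, an inhibitory G protein subunit, -1.50 (-2.40 to -0.73). Csnk2a1, a casein kinase subunit, had -1.92 (-3.39 to -0.76), and Eif1a, a translation initiation factor, had -2.85 (-5.92 to -0.95) on 2 HAMSAB UMIs.

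Notch2, Cxcr4 and Hmgcs1 had 1 HAMSAB UMI each. Their log2 ratios were -3.22 (-8.55 to -0.68) for the receptor gene Notch2, -3.19 (-8.52 to -0.65) for the chemokine receptor gene Cxcr4 and -3.17 (-8.50 to -0.63) for Hmgcs1, an enzyme of cholesterol synthesis. The 54 HAMS UMIs of Cxcr4 came from 13 barcodes, 13 of them from a single barcode. In single-hormone barcodes their log2 ratios were -0.30, -0.17 and -0.68.

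**Figure D5:**
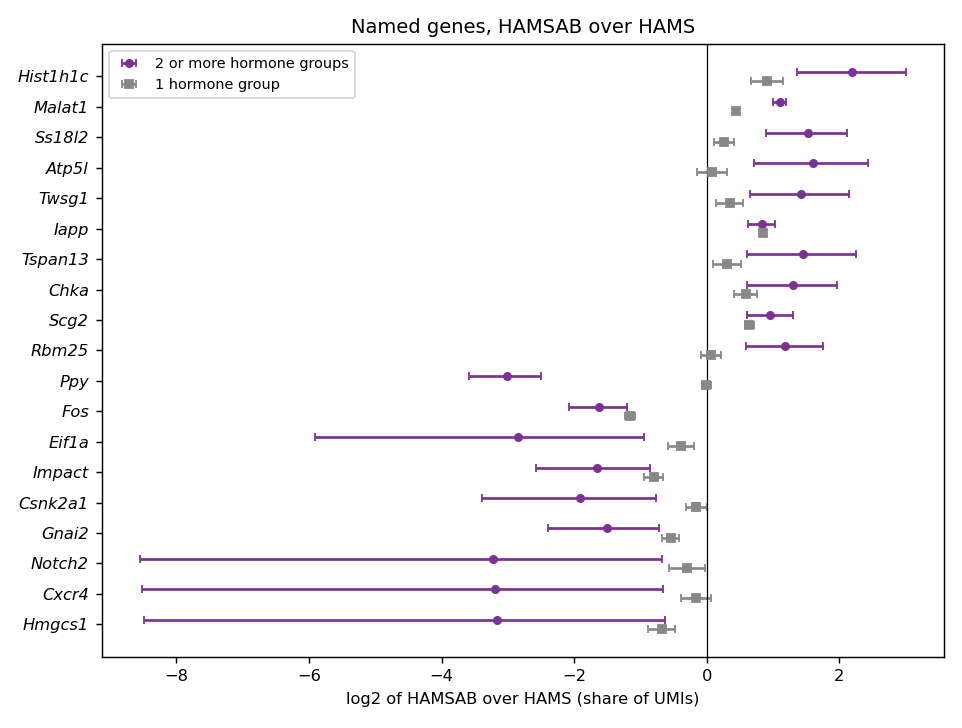
log2 ratio of HAMSAB over HAMS (x axis) of the named genes in dual-hormone barcodes (purple circles) and in single-hormone barcodes (grey squares), with exact conditional binomial 95% intervals. Mt2, with 0 HAMSAB UMIs, is left out; Ppy was at -3.02 in dual-hormone and -0.01 in single-hormone barcodes.

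By gene list, the immediate early and dissociation genes leaned lower in HAMSAB members. Of 21 with at least 20 UMIs, 16 were below 0 and 5 above, with a median log2 ratio of -0.66, of -0.48 with HAMSAB pair weights and of -0.21 in single-hormone barcodes. The median of -0.07 over all 799 genes was taken at the higher limit of 50 UMIs, so it is not a like comparison. Among the 17 with at least 50 UMIs, 4 were 2-fold lower and 0 higher, where 7.51% of all 799 genes were 2-fold lower under the same limit. The lowest were Fos, Dnajb1 (-1.44, -2.53 to -0.52), a heat shock cochaperone, and Hspa1a (-1.19, -4.31 to 0.80), an inducible heat shock protein. The highest were Junb (0.45, -0.20 to 1.05), Klf6 (0.40) and Nfkbia (0.38). With 1 library per diet, the diet and the library cannot be told apart in these ratios.

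Beta cell markers without insulin had a median log2 ratio of 0.21 over 12 members, and 0.51 with HAMSAB pair weights. The highest was Ero1lb, an oxidase of insulin folding (1.11, 0.34 to 1.84), and the lowest Nkx6-1 (-0.96, -2.90 to 0.49), a transcription factor of beta cells. In single-hormone barcodes the median was 0.12, with Ero1lb at 0.50 and Nkx6-1 at -0.58. Pair weights leave the mix within a pair unequal. The insulin-only part of the weighted sum was 69.5% in HAMSAB and 43.0% in HAMS with insulin and somatostatin, and 45.5% and 51.5% with insulin and glucagon or Ppy. Its part in these ratios was not tested. Secretory granule genes had a median of 0.20 over 17, with Ptprn2 (1.67, 0.10 to 3.10) and Scg2 highest and Scgn lowest (-1.31, -3.64 to 0.33). Interferon response genes had a median of 0.29 over 15, with Iigp1 (0.92, 0.40 to 1.42) and B2m (0.62, 0.24 to 0.98) above 0 and Irf1 at -2.90 (-8.23 to -0.35) on 1 HAMSAB UMI. In single-hormone barcodes the log2 ratio was -0.27 for Iigp1 and 0.66 for B2m. Unfolded protein response genes had a median of 0.19 over 16, with Xbp1 at 1.13 (-0.08 to 2.22) and Creld2 at -0.83 (-3.97 to 1.20). Alpha and delta cell marker medians were 0.12 over 9 and 0.48 over 7, with Gc (2.06, 0.86 to 3.21) and Ptprz1 (1.34, -0.33 to 2.81) highest. Islet transcription factors had a median of -0.08 over 10 and ductal markers of -0.30 over 6. Of the leukocyte, acinar and endothelial lists 0 genes reached 20 UMIs in the members.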

How the data were processed

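Each library is a matrix of raw UMI counts per gene and barcode that the authors deposited without normalization, written by Cell Ranger 5.0.0 per the file headers. The submitters' processing notes name the builds mm10 and GRCm38 and Seurat; the settings of cell calling and the annotation release were not given in the sources used here. All 8 deposited tables of the authors' own comparisons were not used, and 0 columns belong to other samples.

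Libraries were grouped by the treatment label. Counts were summed over the barcodes of a class and divided by the class's UMIs. Intervals are exact Poisson for levels, Clopper-Pearson for shares and conditional binomial for ratios between libraries, computed with scipy 1.17.1. Weights of the weighted sum were fitted to the 3 hormone shares by non-negative least squares. Genes with at least 50 UMIs were called apart at 2-fold. Of the steps, only the ratio between libraries and the weighted sum were tested on simulated data. Scrublet in scanpy 1.11.5, at an expected rate of 5%, marked 4 of 8813 barcodes (0.0454%), 1 of them dual-hormone. A caller that marks so few was taken not to have worked, and all barcodes were kept.

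The members, the 15 gene lists and the rule for named genes were chosen with earlier results of these data known. The rule takes the hormones, Pyy and Iapp, the 10 highest and 10 lowest genes of HAMSAB over HAMS by the interval bound nearest 0, the 8 highest and 8 lowest over the weighted sum by the less extreme library, and at most 3 genes at either end of each list, among those with at least 20 UMIs. Mitochondrial, ribosomal, Gm, Rik, immunoglobulin, T cell receptor and haemoglobin genes were left out of the rankings. 2 of the listed genes are not reported here and were left out of every list sum. Positions are from GENCODE M21. Alternatives were other thresholds, filters, denominators and pair weights.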

Additional observations from a re-analysis of the deposited data

Results flagged for a closer look

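Iapp had a log2 ratio of HAMSAB over HAMS of 0.83 in dual-hormone barcodes and of -1.32 in glucagon- or Ppy-only barcodes, so the ratios have opposite signs in these barcode classes. In the dual-hormone value, 68 of the 272 HAMSAB UMIs were in 1 barcode. The glucagon- or Ppy-only value rests on 32 UMIs in HAMSAB and 110 UMIs in HAMS, at 124 and 309 CPM. The difference between the classes was not tested.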

How the results depend on the processing

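No paired analysis was possible because each diet has 1 library. Of 76 alternative values, 52 stayed within the interval of the reported value or within 1.5 times a count, and 24 moved. The dual-hormone share of HAMSAB and HAMS hormone barcodes was 4.30% and 13.3% at a threshold of 1%, 0.743% and 2.41% at 5%, 0% and 0.378% at 10%, and 3.59% and 15.6% with at least 500 genes. It was 3.06% in HAMSAB and 12.6% in HAMS after thinning to 500 UMIs, which 1056 HAMSAB and 1045 HAMS kept barcodes did not reach. HAMSAB was lower at each of these but the 10% threshold, where 0 of 653 HAMSAB and 3 of 794 HAMS barcodes give overlapping intervals. The depth ratio in HAMS was 1.13 at the 5% threshold and 1.04 with at least 500 genes. Beta, alpha and delta lists together stood at 1.28 (HAMSAB) and 1.09 (HAMS) of the weighted sum at 5%. Genes 2-fold higher and lower in HAMSAB than HAMS numbered 5 and 12 of 92 at 5%, and 169 and 242 of 2061 with at least 20 UMIs. With at least 500 genes 16 of 526 were higher. In insulin and somatostatin barcodes alone 14 of 230 were higher, and in somatostatin and glucagon or Ppy barcodes alone 4 and 22 of 209. Genes 2-fold from the weighted sum in both libraries were 2 higher at 5%, and 3 higher and 2 lower with at least 20 UMIs. The 5% threshold leaves 9 HAMSAB and 46 HAMS members, and the cause of the other moves was not tested. The median hormone share of leukocyte-marked barcodes was 0, so subtracting it changed no value. The values from that step could not move, and they are counted among the 52 that stayed. Subtracting the pooled share, thinning, the pair weights, the somatostatin and glucagon or Ppy barcodes alone and leaving out the Ttr-rich barcode were chosen after seeing the data. The HAMSAB members limit most values, since 37 barcodes hold 39531 UMIs.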
